A study of Solanum lycopersicum with 12 samples.

Results

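In roots of salt-irrigated tomato, 158 of the 35976 loci listed were at least 4 times higher after foliar PSI-475 while both leaf group means stayed under 2 FPKM. They were chosen by 3 conditions on group means in FPKM, which are fragments scaled to locus length and library size. The treated root mean was at least 5 FPKM, the untreated root mean was at most 1/4 of it, and both leaf means were under 2 FPKM. The root difference and the low leaf level are therefore what selected the loci, so they are given here as a description, with no test.

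All plants were wild-type Solanum lycopersicum under saline irrigation with 50 mM NaCl (electrical conductivity 5.8 dS per m), so no group shows the response without salt. PSI-475, a biostimulant, was sprayed on the leaves at 2.5 mL per L when plants were 65 days old. The saline period began 1 day after this spray, and the spray was repeated 27 days into it. Controls were sprayed with water. Young leaf and root were taken at 127 days, 2 h after the light period, and gave 3 libraries for each of 4 groups, untreated and treated leaf and untreated and treated root. Whether replicates came from different plants is not stated in the labels. A p-value below therefore measures the spread among the libraries of a group, and that spread may be technical. Library totals recovered from the values ran from 17108347 to 22993130 fragments. Tissue labels were not checked against marker genes, because the table gives identifiers only and 0 of them, with or without the version suffix, were found in the RefSeq gene table of assembly SLM_r2.1.

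The root takes up water and ions and is the first organ to meet salt in the soil water. Many plant genes act in a single organ, and related genes often lie side by side on a chromosome after tandem duplication. Tomato locus identifiers carry the chromosome number and a number assigned in order along that chromosome. Neighbouring listed identifiers are therefore taken here as neighbouring loci, although the identifier gives no distance in bases. The next listed identifier can be far on in number, as with Solyc03g077890.1 after Solyc03g071870.1. Positions on the chromosome were not checked. With no names paired to them, the loci are described by identifier, level, length and neighbourhood, and no function is assigned to any of them.

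Of the 158 loci, 153 had tomato locus identifiers, 4 were numbered loci and 1 had a non-coding RNA identifier. Treated root held 12827 loci at 5 FPKM or above. Of these, 3.23% met the root condition and 5.59% the leaf condition. Among the 717 that met the leaf condition, 22.0% met the root condition. These shares follow from the rule and nothing is read from them. A further 256 loci met the root condition but reached 2 FPKM in a leaf group, and they serve below as a comparison set.

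The thresholds cut through a continuous range. Solyc06g083910.3 was just inside the level condition at 5.06 FPKM in treated root, and Solyc06g031697.1 was just outside at 4.999. For the ratio, Solyc01g073780.2 was inside at 4.01 and Solyc06g060013.1 outside at 3.98. For the leaf ceiling, Solyc03g007360.3 was inside at 1.98 FPKM in treated leaf and Solyc03g116280.3 outside at 2.03.

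**Figure D1:**
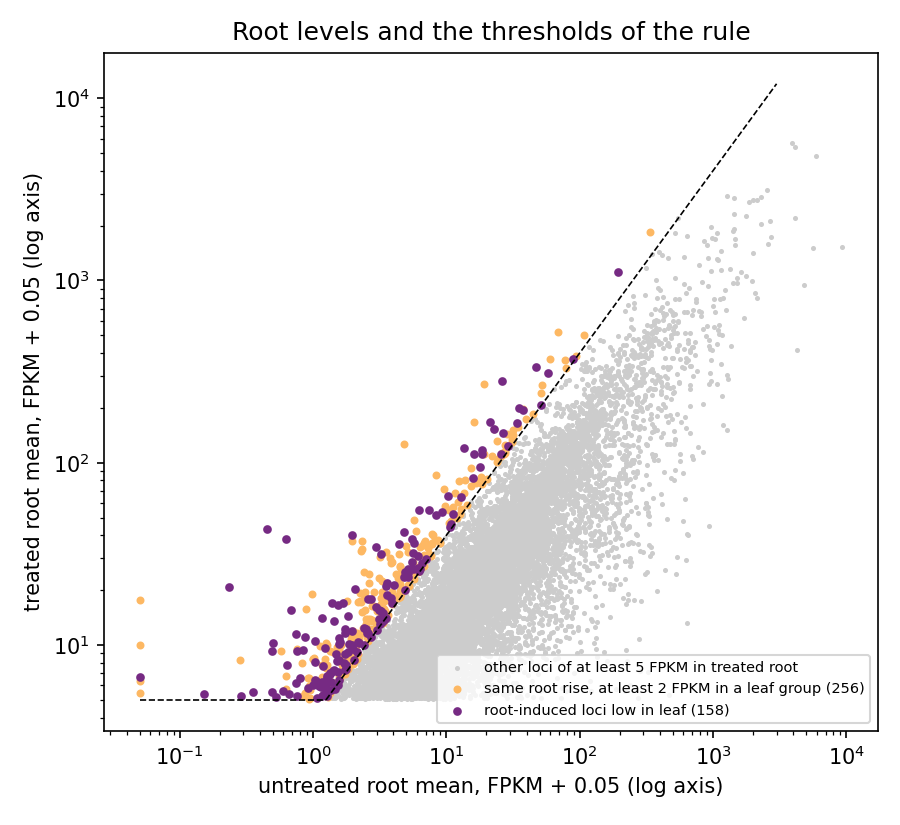
Mean FPKM + 0.05 of 3 untreated root libraries (x, log axis) against 3 treated root libraries (y, log axis) for each locus of at least 5 FPKM in treated root. Dashed lines mark the root thresholds; the 158 loci low in leaf and the 256 that reach 2 FPKM in a leaf group occupy the same region above them.

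Most of the loci were moderately expressed even in treated root. The treated root means had a median of 13.2 FPKM, and 59 loci lay between 5 and 10 FPKM, 41 between 10 and 20, 31 between 20 and 50, 9 between 50 and 100, and 18 at 100 or more. In untreated root the median was 2.00 FPKM. There, 27 loci were under 1 FPKM, 52 between 1 and 2, 35 between 2 and 5, 30 between 5 and 20, and 14 at 20 or more. In untreated root, 113 of the 158 had at least 1 FPKM and at least 4 times the untreated leaf mean. The leaf ceiling of the rule bears on this count, so nothing is read from it. In bulk tissue, more cells of a type and more RNA per cell cannot be told apart.

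As a group the loci held a small part of the root libraries. Their fragments made up 0.148%, 0.149% and 0.148% of the untreated root libraries, a mean of 0.148% ± 0.000522 (SD, n = 3). In treated root the shares were 0.824%, 0.854% and 0.874%, a mean of 0.851% ± 0.0252 (SD, n = 3). In leaf the means were 0.00677% ± 0.000710 (SD, n = 3) untreated and 0.00746% ± 0.000298 (SD, n = 3) treated, and these leaf groups overlapped. The 10 highest loci held 49.0% of the summed treated root FPKM of all 158, and the highest alone 16.3%.

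**Figure D2:**
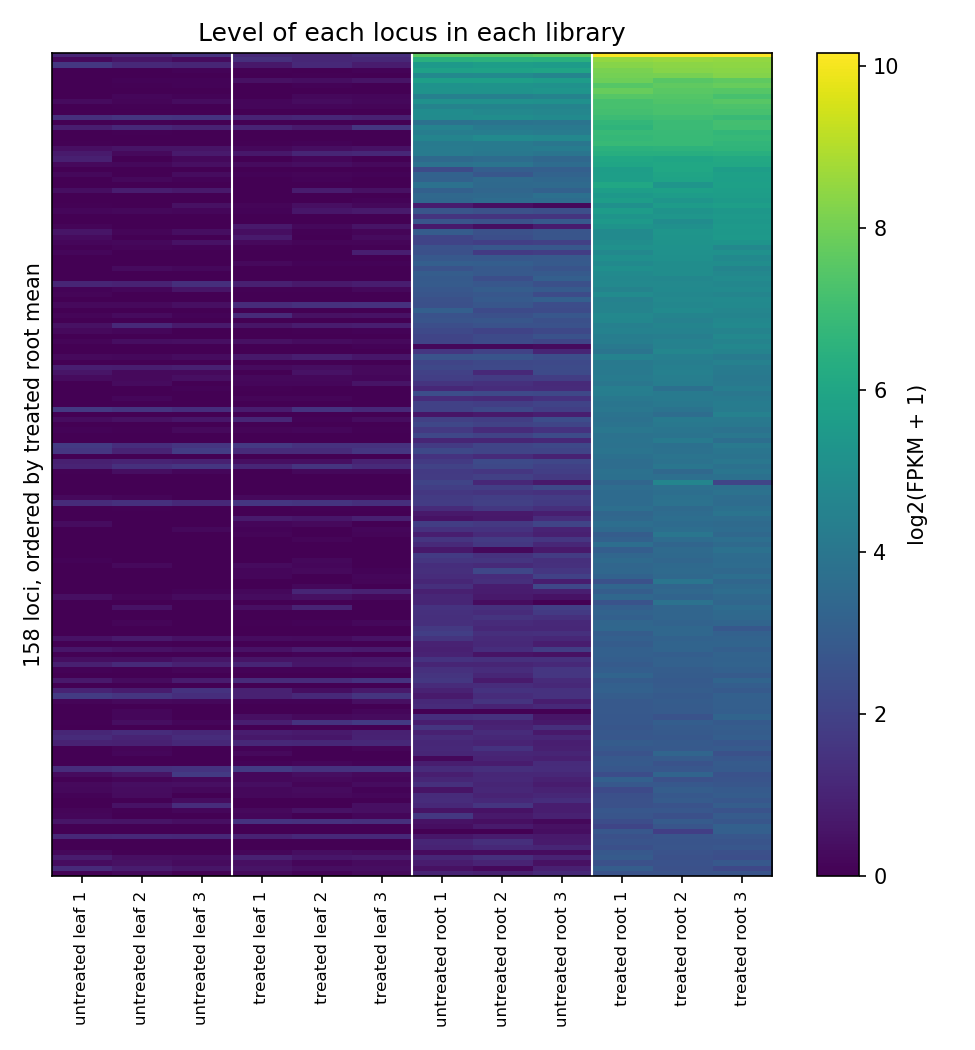
Level of each of the 158 loci (rows, ordered by treated root mean) in each of the 12 libraries (columns), as log2(FPKM + 1). The 6 leaf columns are dark throughout, the untreated root columns are intermediate for the upper rows, and the treated root columns are brightest, as the rule requires.

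Solyc04g080540.2 had the highest level. Its untreated root libraries read 193, 182 and 206 FPKM and its treated root libraries 1087, 1092 and 1145, which moved it from rank 599 to rank 50 among all loci. The ratio of means was 5.72. Its leaf libraries lay between 1.06 and 1.81 FPKM in both groups, so it was low there but detected in every library.

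Solyc06g062380.3 was next, at 87.5, 92.0 and 85.5 FPKM in untreated root and 364, 381 and 361 in treated root. Solyc06g073165.1 read 43.7, 49.9 and 46.2 FPKM in untreated root against 320, 333 and 348. Solyc02g064970.3 read 56.0, 56.2 and 60.5 FPKM against 280, 319 and 331. In all 3 the treated libraries stood far above the untreated ones, with ratios of means of 4.17, 7.16 and 5.38.

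Solyc10g007960.1 had the largest ratio among the 10 highest, 10.7. Its untreated root libraries read 26.2, 28.5 and 23.8 FPKM and its treated root libraries 259, 271 and 313. In leaf it had fragments in 1 of 6 libraries only. The other 5 of the 10, Solyc09g005400.3, Solyc01g108860.3, Solyc04g007750.3, Solyc10g009150.3 and Solyc08g080670.2, had treated root means from 164 to 208 FPKM and ratios from 4.07 to 7.87. Solyc04g007750.3 had 0 fragments in all 6 leaf libraries. In none of the 10 did the root groups overlap, but the ratio condition of the rule bears on this. Over all loci of at least 5 FPKM in treated root, the lowest treated library stood above the highest untreated one in 61.6%.

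**Figure D3:**
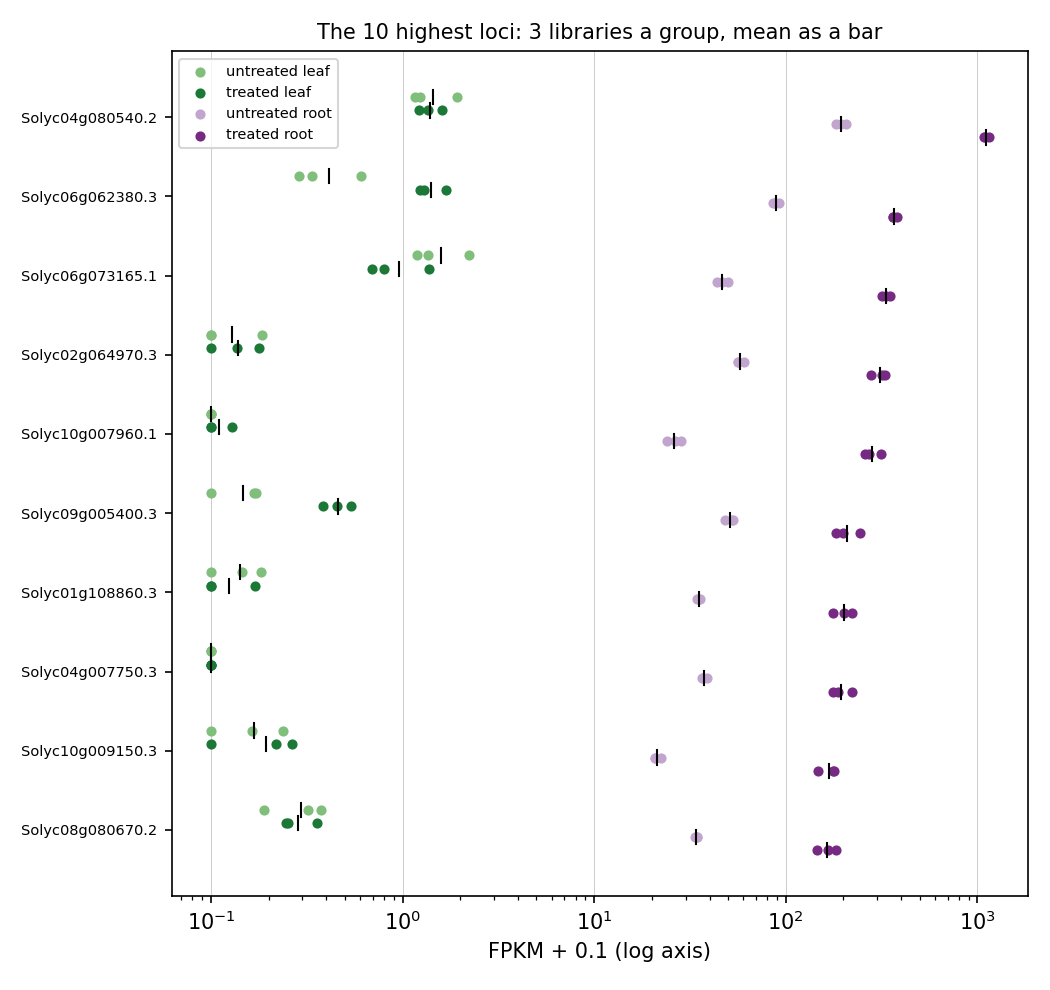
FPKM + 0.1 (x, log axis) of the 10 loci with the highest treated root mean, 1 point per library and a bar at the group mean, 3 libraries a group. Points at 0.1 are libraries with 0 fragments; treated root lies to the right of untreated root in every row, and leaf stays at or below 2.12 FPKM.

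The size of the root difference was mostly close to the threshold. The median ratio was 5.42, or 2.44 on the log2 scale with quartiles of 2.23 and 2.95. In all, 55 loci had ratios between 4 and 5, 36 between 5 and 6, 28 between 6 and 8, 13 between 8 and 10, 16 between 10 and 20, and 10 of 20 or more. The comparison set had a median ratio of 5.11, with 7 of 256 at 20 or more. In 157 of the 158 loci the lowest treated root library stood above the highest untreated one, against 61.6% of all loci with at least 5 FPKM in treated root. The exception was Solyc07g040930.1, a locus of 90 bases with 5, 2 and 1 fragments in untreated root and 15, 37 and 6 in treated root. In 91 loci even the lowest treated library was at least 4 times the highest untreated one. The ratio condition of the rule bears on both counts. Most of the loci behind the 61.6% did not meet that condition, so nothing is read from the difference.

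The 3 largest ratios among loci with fragments in every untreated root library rest on few untreated fragments. Solyc11g069750.2 read 0.165, 0.175 and 0.217 FPKM in untreated root, from 7, 8 and 10 fragments, and 16.5, 20.8 and 25.3 FPKM in treated root, from 730, 885 and 1293. Its ratio was 112. For Solyc03g071857.1, with a ratio of 108, the untreated values came from 11, 6 and 3 fragments and the treated values from 559, 740 and 975. Its immediate neighbour in the set, Solyc03g071870.1, had a ratio of 66.3 from 6, 3 and 7 fragments against 334, 295 and 475.

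The next ratios among loci with fragments in every untreated root library belonged to Solyc05g053170.3 and Solyc07g014580.3, both with 0 fragments in all 6 leaf libraries. Solyc05g053170.3 read 0.494, 0.612 and 0.796 FPKM in untreated root against 13.6, 11.6 and 21.2, a ratio of 24.4. Solyc07g014580.3 read 0.568, 0.165 and 0.621 FPKM against 7.14, 10.4 and 13.0, a ratio of 22.6. Neither locus overlapped between root groups, on which the ratio condition of the rule also bears. Only Solyc09g005500.3 had 0 fragments in all 3 untreated root libraries. It had 85, 89 and 115 fragments in treated root, or 6.59 ± 0.523 FPKM (SD, n = 3), and was at least 31.1-fold higher against a floor of 3 fragments per untreated library.

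The ratios depend on how the libraries are scaled. Across the 18277 loci that reached 1 FPKM on average in root, the median log2(FPKM + 1) difference between treated and untreated root was 0.28 as deposited and 0.046 after median-of-ratios scaling. With that scaling the median log2 ratio of the 158 loci was 2.17 and 105 loci met the rule, 104 of them among the 158. Leaving out 1 library at a time gave 152 to 161 loci, and 117 of the 158 met the rule each time.

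Identifiers that sit together formed 13 runs with 27 of the 153 tomato loci, or 17.6%. Loci were joined where at most 2 listed loci lay between them in identifier order. In 10 of the runs the identifiers were adjacent throughout, 12 runs were pairs and 1 held 3 loci. The comparison set gave a similar share, with 40 of 250 tomato loci, or 16.0%, in 18 runs. With median-of-ratios scaling, 14 loci in 7 runs were left. Neighbouring loci can be near-identical copies or overlap, and the counting could then split or share their fragments. No sequences were used here, so this was not tested.

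The run of 3 was Solyc07g009030.3, Solyc07g009040.3 and Solyc07g009050.3 on chromosome 7. The first read 1.06, 1.10 and 1.20 FPKM in untreated root and 13.7, 16.8 and 11.7 in treated root. The second read 1.37, 1.45 and 1.22 against 7.59, 6.62 and 7.21, and the third 1.97, 1.00 and 1.56 against 5.67, 6.47 and 7.03. Across the 3 loci and 6 leaf libraries, 1 library of 1 locus had any fragments. The run extended into neighbours that missed a threshold: Solyc07g009020.2 went from 1.43 to 5.60 FPKM, a ratio of 3.92, Solyc07g009060.3 from 12.5 to 31.8, a ratio of 2.53, and Solyc07g009070.3 from 6.33 to 21.8, a ratio of 3.45. Together these are 6 consecutive listed loci with higher treated root means and leaf means of at most 0.131 FPKM.

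Solyc04g007030.3 and Solyc04g007050.3, long loci of 3640 and 3295 bases on chromosome 4, were separated by a locus with no fragments in any library. The first read 17.6, 17.2 and 18.4 FPKM in untreated root against 91.8, 93.1 and 99.7, and the second 3.80, 3.15 and 3.62 against 21.6, 22.0 and 22.1. Before the pair, Solyc04g007020.3 was at 14.7 FPKM in untreated and 24.5 in treated root. The loci after the pair went the other way. Solyc04g007060.3 was at 97.2 FPKM in untreated and 37.5 in treated root, and Solyc04g007070.3 at 28.5 and 14.1.

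On chromosome 6, Solyc06g073580.3 read 12.7, 9.96 and 10.6 FPKM against 64.5, 38.4 and 54.2, and its neighbour Solyc06g073585.1, of 280 bases, read 3.97, 7.17 and 7.49 against 49.4, 65.0 and 50.1. Both had 0 fragments in all 6 leaf libraries. The locus before them, Solyc06g073570.3, was at 0.259 FPKM in untreated and 4.39 in treated root and was at 0 in leaf, so it missed only the level of 5. Further out, Solyc06g073560.3 was at 7.83 FPKM in untreated and 22.4 in treated root. After the pair, Solyc06g073600.3 had a treated to untreated ratio of 1.12. On chromosome 8, Solyc08g066880.3 read 13.4, 13.9 and 11.1 FPKM against 62.4, 65.4 and 67.5, and Solyc08g066890.3 read 5.30, 5.57 and 4.55 against 24.9, 21.3 and 24.9. Their flanking loci Solyc08g066870.3 and Solyc08g066875.1 had treated to untreated ratios of 0.887 and 0.879.

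The chromosome 3 pair of Solyc03g071857.1 and Solyc03g071870.1 combined a very low untreated level with treated means of 43.5 ± 8.91 and 37.9 ± 5.86 FPKM (SD, n = 3). The nearest expressed neighbour before it, Solyc03g071850.1, was at 23.1 FPKM in untreated and 26.4 in treated root. On chromosome 10, Solyc10g050980.1 and Solyc10g050990.1, short loci of 201 and 210 bases, went from means of 2.03 and 4.37 to 20.2 and 35.9 FPKM. The abundant locus before them, Solyc10g050970.1, was lower in treated root, at 470 FPKM against 935. Neighbours of the named runs ranged from higher to lower in treated root.

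**Figure D4:**
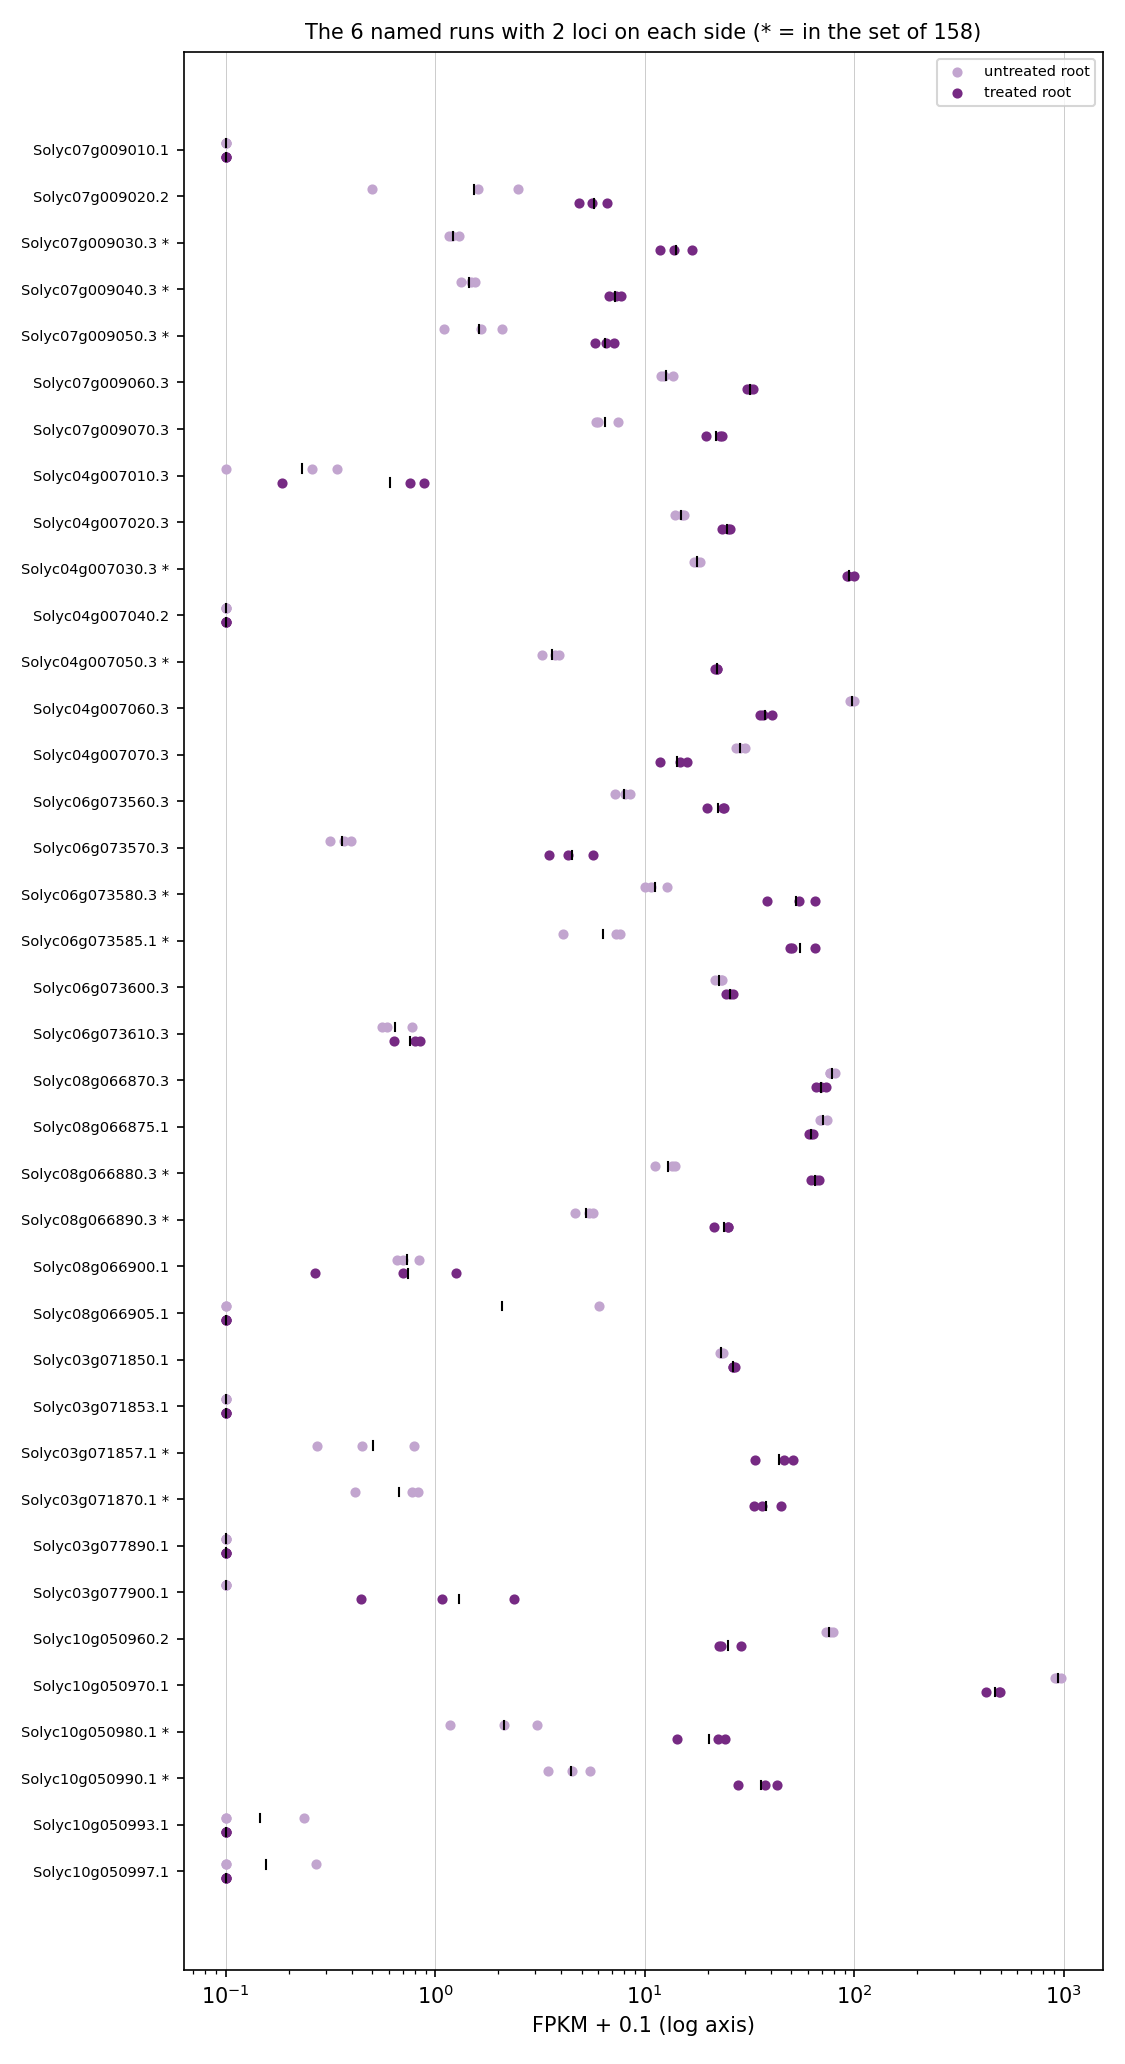
FPKM + 0.1 (x, log axis) in the 3 untreated and 3 treated root libraries for the loci of 6 runs and the 2 listed loci on each side, in identifier order within each run. Asterisks mark loci of the set of 158 and black bars the group means; 3 of the 4 flanking loci of the chromosome 7 run also lie higher in treated root, whereas the 2 loci after the chromosome 4 run and the 2 before the chromosome 10 run lie lower.

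Direct neighbours in listed identifier order, outside the root rise, were examined for all runs and lone loci, since the rule did not choose them. Of 278 such neighbours, 156 had a root mean of at least 1 FPKM. Among these, 29.5% were at least 2 times higher in treated root and 7.05% at least 2 times lower. Over all tomato loci without the root rise the shares were 15.5% and 12.2%. Neighbours of the comparison set gave 27.0% and 6.67%, so a higher share than over all loci was also seen beside loci that were expressed in leaf. No test was made of these shares. In leaf, 53.2% of the neighbours had both leaf means under 2 FPKM, against 38.1% of the neighbours of the comparison set and 51.8% of all tomato loci without the rise.

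The loci were spread over all 12 chromosomes, with 7 of 2521 listed loci on chromosome 5 and 18 of 2547 on chromosome 10 as the lowest and highest shares. Their lengths, recovered from the values, ran from 90 to 5985 bases with a median of 1142. The comparison set had a median of 1350 and all loci of at least 5 FPKM in treated root a median of 1642. Loci under 500 bases made up 17.7%, 15.2% and 9.32% of these sets. Identifiers with version suffix 1 made up 31.4% of the 153, 30.0% of the comparison set and 15.9% of the tomato loci of at least 5 FPKM in treated root. Short loci and suffix 1 were therefore more frequent in both sets with the root rise than among loci of the same minimum level, again with no test.

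The median coefficient of variation between treated root libraries was 10.5% for the 158 loci, 8.37% for the comparison set and 6.23% for all loci of at least 5 FPKM. A higher spread than over all loci was thus seen in both sets with the root rise. Within level classes the medians of the 158 and of all loci were 12.2% against 8.78% between 5 and 10 FPKM, 10.4% against 6.74% between 10 and 20, and 11.7% against 5.44% between 20 and 50. They were 5.16% against 4.61% between 50 and 100 FPKM and 7.33% against 4.36% at 100 or more. In the 3 lower classes the 158 loci also had fewer fragments, with medians of 140, 315 and 679 per library against 232, 466.5 and 939. Between 50 and 100 FPKM, where the spreads were closest, they had fewer too, with 899 against 1840. At 100 FPKM or more they did not, with 4637 against 4395. The part of depth in this spread was not tested.

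"Silent" describes only some of the loci in leaf. In 40 of the 158 (25.3%) no fragment was counted in any of the 6 leaf libraries. For these, 3 fragments in 1 library equal 0.0503 to 1.63 FPKM depending on length, as a mean over the leaf libraries. With 0 fragments in all 6 libraries, the level allowed is below that floor, by an amount not computed here. Another 118 had at least 1 leaf fragment, and 24 reached 1 FPKM in a leaf group. The median leaf means were 0.0475 FPKM untreated and 0.0881 treated.

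The spray contrast within leaf is the comparison that the rule did not set, apart from the same ceiling on both leaf groups. It was tested with limma on log2(FPKM + 1) over all 18405 loci whose mean over the 6 leaf libraries reached 1 FPKM, with Benjamini-Hochberg adjustment. Only 16 of the 158 loci passed that filter and 142 were too low. Of the 16, 2 rose and 1 fell (adjusted p under 0.05), where 13.5% of all tested loci rose and 18.8% fell. The median change in log2(FPKM + 1) was -0.030 for the 16 and -0.088 for all tested loci. Of all tested loci, 32.3% were called in either direction. The ceiling on both leaf means keeps the 16 loci in a narrow low range, so their 3 calls are not read against that share.

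Solyc12g006570.2 read 0.484, 0.464 and 0.325 FPKM in untreated leaf and 1.81, 1.70 and 1.61 in treated leaf. The change in log2(FPKM + 1) was 0.93, with SE 0.14 and limma adjusted p = 0.00194. Solyc11g006450.2 read 0.614, 0.221 and 0.721 FPKM against 1.36, 1.40 and 1.82, a change of 0.74 on that scale, with SE 0.18 and limma adjusted p = 0.0161. The groups did not overlap for either locus. Both passed the filter only through the treated group, so their count is no support for a leaf response of the set. Without any 1 treated leaf library both fell under the filter and were not tested.

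Solyc09g090360.3 was the locus that fell. It read 1.55, 1.85 and 1.81 FPKM in untreated leaf and 0.999, 1.15 and 0.904 in treated leaf, a change of -0.44 on the same scale, with SE 0.13 and limma adjusted p = 0.0389. In root the same locus read 28.8, 30.5 and 28.1 FPKM untreated and 124, 129 and 116 treated. The leaf call was lost with median-of-ratios scaling (limma adjusted p = 0.0635), with a replicate block (limma adjusted p = 0.0815) and without any 1 leaf library (limma adjusted p from 0.0554 to 0.132).

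Without a filter on low values, 118 of the 158 loci could be tested in leaf, and 10 rose and 2 fell (limma adjusted p under 0.05), where 21.0% of 26067 loci were called, 9.08% higher and 11.9% lower. Solyc02g080200.3 read 0.200, 0.199 and 0.341 FPKM in untreated leaf against 1.39, 1.64 and 1.74, from 13, 12 and 22 fragments against 102, 125 and 121. Solyc06g062380.3, the second highest locus in root, read 0.189, 0.509 and 0.237 FPKM against 1.59, 1.13 and 1.19. Solyc11g069760.1, which forms a run with Solyc11g069750.2, had 0 fragments in all 3 untreated leaf libraries and 8, 7 and 10 in the treated ones. Of the 2 that fell, Solyc03g094000.3 read 0.830, 0.768 and 0.836 FPKM against 0.245, 0.304 and 0.185 (limma adjusted p = 0.00321). It had 21, 18 and 21 fragments against 7, 9 and 5. The other was Solyc09g090360.3, described above. Levels this low rest on few fragments, and nothing is read from the 12 calls against the background.

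**Figure D5:**
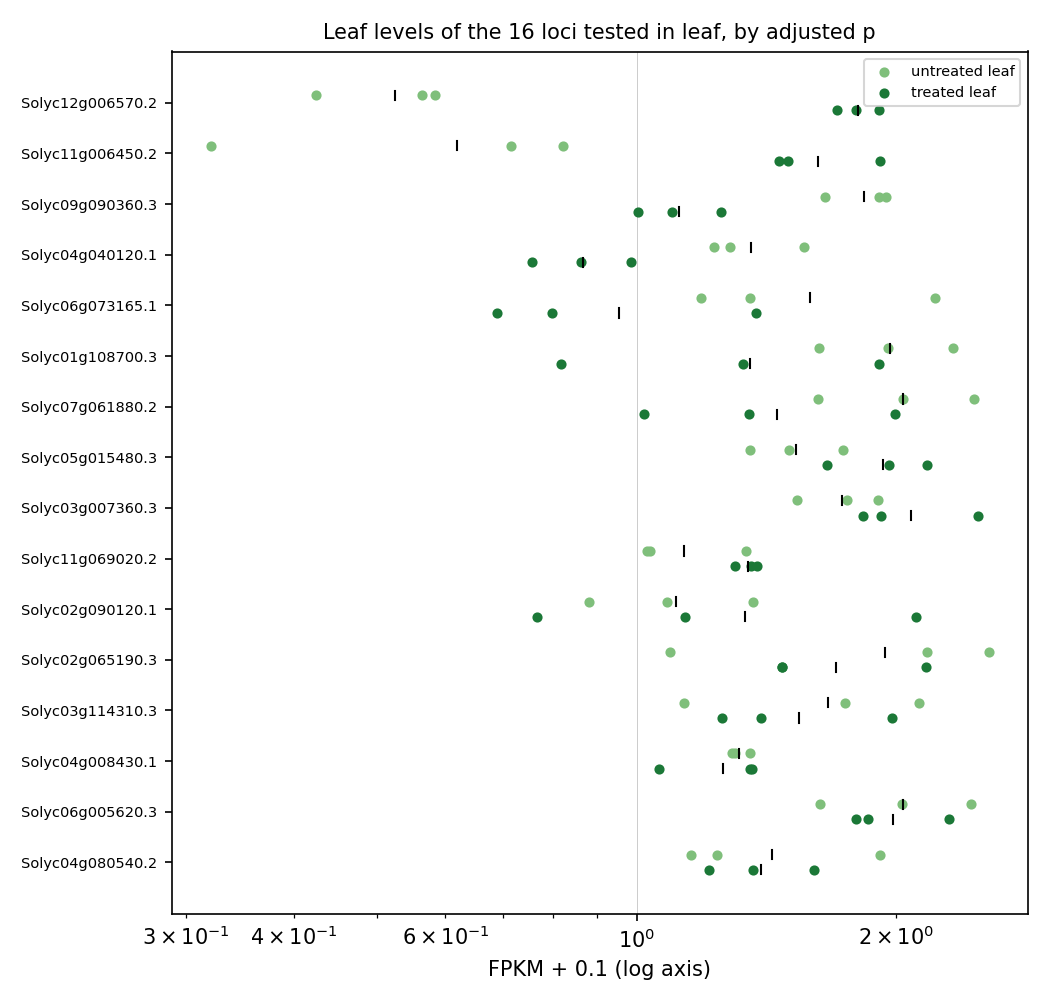
FPKM + 0.1 (x, log axis) in the 3 untreated and 3 treated leaf libraries for the 16 loci tested in leaf, ordered by limma adjusted p, with bars at the group means. The first 2 rows lie higher in treated leaf and the third lower; the fourth is lower in treated leaf without passing the test, and the groups overlap in the 12 rows after it.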

How the data were processed

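The deposited table holds FPKM made by the authors for 12 libraries of young leaf and root. Per the submitters' processing notes, fastp, featureCounts and DESeq2 were used; their versions, the aligner, the build and the handling of strand are not given in the sources used. FPKM depends on locus length and on the library total, so a shift of a few abundant loci moves all others.

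Whole fragments, lengths and library totals were recovered from the digits: every value was whole within a tolerance of 0.001, and summing them gave 99.99% or more of each total. In 219 loci a factor shared by all counts was restored so that the length became whole; other shared factors are lost. Floors cover counting error only.

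The rule was applied to raw means. Leaf was tested with limma 3.58.1 in R 4.3.3, with a mean-variance trend, 2-sided, at adjusted p under 0.05, on loci of at least 1 FPKM. The procedure was run on simulated fragments, with changes set only in loci of at least 1 FPKM in untreated leaf. Spread in that simulation came from loci with many fragments. It therefore does not cover the 2 loci that rose, with untreated leaf means of 0.424 and 0.519 FPKM. Named loci are those of 6 runs, the 10 highest, the 5 largest ratios with fragments in every untreated root library, loci called in leaf, and loci at the thresholds; others were named after their values were seen, such as flanking loci and those called in leaf without a filter. Members, lists and tests were chosen with earlier results of these data known. Alternatives varied scaling, thresholds, pseudocount, filter, test and libraries.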

Additional observations from a re-analysis of the deposited data

Results flagged for a closer look

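For Solyc09g090360.3 all 3 treated leaf libraries lay below all 3 untreated ones, while all 3 treated root libraries lay above the untreated ones. Its leaf change in log2(FPKM + 1) was -0.44, from a mean of 1.74 FPKM untreated to 1.02 treated. The libraries of Solyc04g040120.1 lay in the same order, but this locus did not pass the leaf test. The leaf difference of Solyc04g040120.1 in log2(FPKM + 1) was -0.35 (limma adjusted p = 0.098). It read 1.13, 1.46 and 1.18 FPKM in untreated leaf and 0.761, 0.655 and 0.886 in treated leaf. It met the 1 FPKM filter through the untreated group, the treated mean being 0.767. Its root mean was 0.983 FPKM untreated and 6.36 treated. Only loci that passed the leaf filter were searched for this order. Below the filter, Solyc03g094000.3 lay in it too, with leaf means of 0.811 FPKM untreated and 0.245 treated. The root means of Solyc03g094000.3 were 3.79 FPKM untreated and 18.1 treated. Others below the filter were not counted. The root direction is fixed by how the loci were chosen, and the difference between tissues was not tested.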

How the results depend on the processing

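The number of loci that met the rule was 105 with median-of-ratios scaling, 250 at a 3-fold and 39 at an 8-fold root threshold, 266 at 2 FPKM and 99 at 10 FPKM in treated root, and 91 when the lowest treated library had to be 4 times the highest untreated one. It stayed within 1.5 times of 158 for TPM (183), equal library sums (161, chosen after seeing the data), group medians (156) and leaf ceilings of 1 FPKM (134) and 5 FPKM (226), and ran from 152 to 161 with 1 library left out. Loci in runs numbered 14 with median-of-ratios scaling, 21 to 31 under other distances and 22 to 29 with 1 root library left out. The median log2 root ratio was 2.07 on the log2(FPKM + 1) scale and 2.17 with median-of-ratios scaling, and 2.43 to 2.49 with 1 root library left out. The share of treated root was 1.01% as summed FPKM, 0.760% without the highest locus, and 0.839% to 0.864% with 1 treated root library left out. Leaf calls numbered 12 without a filter and 7 at a filter of 0.5 FPKM, because more loci were tested, and 0 to 4 with 1 leaf library left out. The calls were 0 without any 1 treated library, where the loci that rose fell under the filter. Without any 1 untreated library there were 4, all higher in treated leaf. There the filter, a mean over the libraries left in, gives more weight to treated leaf. These calls are therefore no support for a leaf response of the set. Other leaf settings gave 2 to 4 calls, and the range of limma adjusted p over the settings was 0.000195 to 0.00873 for Solyc12g006570.2, 0.0113 to 0.0454 for Solyc11g006450.2 and 0.000766 to 0.132 for Solyc09g090360.3. The labels do not state whether replicate numbers pair the leaf samples. Same-numbered deviations from the leaf group means correlated at -0.237, 0.114 and -0.105, and differently numbered ones at -0.250 to 0.319. With 3 libraries a group these values cannot settle whether samples were paired. A replicate block gave 2 calls. Depth limits the loci under 1 FPKM, where 3 fragments in a library can be the whole value.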

Other observations

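Treated root library 3 had the highest value of the 3 treated root libraries in 83 of the 158 loci (52.5%), against 33.9% of all loci of at least 5 FPKM in treated root and 39.1% of the 256 loci with the same root rise that reach 2 FPKM in a leaf group. At the median locus of the 158, library 3 was 1.10 times library 1. The same ratio was 1.03 in the set of 256 and 0.992 over all loci of that level.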
